A study of Mus musculus with 2 samples.

Results

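The regions described here are 608 H3K27ac summits that were called in WT colonic macrophages, far from any protein-coding gene, and that had no called counterpart in macrophages lacking Tle4. H3K27ac, acetylation of lysine 27 of histone H3, marks active promoters and enhancers. The mark was mapped by CUT&Tag, in which an antibody tethers a transposase to marked chromatin so that nearby DNA is cut, tagged and sequenced. Members were chosen by the summit positions of both libraries and by gene annotation. They lay on chromosomes 1 to 19 or X, lay outside every protein-coding gene, lay more than 50 kb from the nearest end of such a gene, and had no Tle4cKO summit within 500 bp. They are called WT-only remote summits below and were 608 of the 10460 WT summits on these chromosomes, and of 12830 summits in both lists together.

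Both groups were untreated male C57BL/6 mice aged 11.1 weeks. Tle4cKO mice were Tle4f/f with Lyz2-Cre, which deletes the floxed gene in cells of the myeloid lineage, and WT mice carried Lyz2-Cre without the floxed alleles, so Cre was present in both. Siglec-F-negative, Ly6C-low, CD64-positive colonic cells of 4 mice were pooled for each genotype, giving 1 library per genotype, and no p-value is given for any difference. The peak lists were of unequal length, with 2341 Tle4cKO and 10460 WT summits on these chromosomes, and the read depth behind them is unknown. A region without a called peak may still carry acetylation, and fewer marked cells cannot be told apart from less mark per cell.

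Distal acetylated regions in intergenic DNA are a usual feature of macrophage chromatin. Enhancers can act on genes over long genomic distances, and which ones are active depends on lineage factors such as PU.1, C/EBP, IRF and RUNX proteins and on signal-dependent factors such as AP-1. Gene deserts, long stretches without coding genes, often flank genes of transcription factors and hold their enhancers. Tle4 is a Groucho-family corepressor. Such proteins do not bind DNA themselves and are recruited by factors such as HES and RUNX proteins.

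The labelled cell type was set against marker genes by summits in a gene or within 10 kb of it. Of 17 macrophage markers, 2 (Ptprc and Cd74) had a Tle4cKO summit, and 10, among them Adgre1, Csf1r, Cx3cr1, Fcgr1 and Mertk, had a WT summit. Itgam, Lyz2, C1qa, C1qb, C1qc and Cd163 had none in either library. Tle4cKO and WT summits were found at 1 and 3 of 5 endothelial markers, at 0 and 2 of 6 T cell markers, at 0 and 2 of 5 B cell markers and at 0 and 1 of 8 epithelial markers. No fibroblast, glial or neutrophil marker had a summit in either library. The few endothelial markers thus had a WT summit about as often as the macrophage markers. The share of all genes with a summit that near is not given here. These counts therefore do not settle the cell type. The part of other cell types in the results below was not tested.

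Of the 608 summits, 9 lay inside the promoter window of a long noncoding RNA (lncRNA) gene, here the 250 bases before and 50 bases after the annotated start. These windows are the members for which sequence was at hand. The 5 shown were chosen because they hold the highest-scoring member in such a window (A630089N07Rik), a member in a territory with many of them (Gm34805 and Gm46343), a member near Hes1 (4632428C04Rik) or a PU.1 motif (Gm38397). Sequences are from RefSeq on GRCm38.p6, the assembly behind mm10, and run 5′ to 3′ in the direction of the lncRNA. Capitals mark matches to any of 8 motifs on either strand.
Gm46343: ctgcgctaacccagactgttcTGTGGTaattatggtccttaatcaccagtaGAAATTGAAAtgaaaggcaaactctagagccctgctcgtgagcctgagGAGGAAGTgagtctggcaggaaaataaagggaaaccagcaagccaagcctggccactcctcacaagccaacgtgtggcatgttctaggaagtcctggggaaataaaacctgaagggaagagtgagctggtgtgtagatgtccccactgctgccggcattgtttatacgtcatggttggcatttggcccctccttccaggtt
Gm34805: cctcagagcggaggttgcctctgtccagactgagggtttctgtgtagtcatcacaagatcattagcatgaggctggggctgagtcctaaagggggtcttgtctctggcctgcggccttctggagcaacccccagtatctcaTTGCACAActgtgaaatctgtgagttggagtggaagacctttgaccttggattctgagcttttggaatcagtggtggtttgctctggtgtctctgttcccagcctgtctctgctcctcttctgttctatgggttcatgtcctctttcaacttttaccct
Gm38397: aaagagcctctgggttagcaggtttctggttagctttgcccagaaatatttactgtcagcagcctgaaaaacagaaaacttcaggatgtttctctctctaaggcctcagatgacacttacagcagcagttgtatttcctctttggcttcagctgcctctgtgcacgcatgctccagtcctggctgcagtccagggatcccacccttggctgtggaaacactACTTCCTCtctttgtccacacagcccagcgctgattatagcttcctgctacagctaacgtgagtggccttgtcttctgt
A630089N07Rik: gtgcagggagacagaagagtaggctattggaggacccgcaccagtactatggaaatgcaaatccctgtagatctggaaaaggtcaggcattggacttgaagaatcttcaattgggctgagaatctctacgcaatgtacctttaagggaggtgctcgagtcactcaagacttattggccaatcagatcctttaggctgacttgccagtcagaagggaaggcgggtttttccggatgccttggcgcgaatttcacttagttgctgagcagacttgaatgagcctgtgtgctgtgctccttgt
4632428C04Rik: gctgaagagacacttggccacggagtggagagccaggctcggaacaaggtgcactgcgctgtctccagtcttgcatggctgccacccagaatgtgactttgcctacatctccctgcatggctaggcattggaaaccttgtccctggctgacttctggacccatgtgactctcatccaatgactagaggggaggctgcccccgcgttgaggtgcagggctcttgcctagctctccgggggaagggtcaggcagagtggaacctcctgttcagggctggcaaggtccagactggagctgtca

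The Gm46343 window (chr12:25303526-25303825, plus strand) lay 208 kb from Id2, which encodes an inhibitor of basic helix-loop-helix factors. Its summit, at base 230 of 300, had a score of 1.897, among the lowest of all members. It held a RUNX motif, an IRF motif and a PU.1 motif, more than any other of the 9 windows. The Gm34805 window (chr2:160249897-160250196, minus strand) held its summit at base 36, with a score of 3.37, and a C/EBP motif. The Gm38397 window (chr13:110903249-110903548, plus strand) held a PU.1 motif, and its summit, at base 52, had a score of 3.88. The A630089N07Rik window (chr16:98082390-98082689, minus strand) had its summit at base 187, with a score of 5.94, and matched none of the motifs. The 4632428C04Rik window (chr16:30008417-30008716, plus strand) lay 56.7 kb from Hes1, which encodes a Notch-induced repressor that recruits Groucho proteins. Its summit, at base 213, had a score of 3.30, and it matched none of the motifs either.

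The 9 windows had a median GC content of 50.3% and a median of 6 CpG dinucleotides. The 3367 promoter windows of non-protein-coding genes that lay over 50 kb from coding genes had medians of 45.7% and 3. A PU.1 motif (GAGGAAGT) was in 2 of the 9 windows and in 3.802% of the 3367. A RUNX motif (TGTGGT) was in 2 of 9 and in 20.1%. A C/EBP motif (TTGCNNAA), an IRF motif (GAAA, any 2 bases, GAAA) and an E-box (CACGTG) were each in 1 of 9, against 14.6%, 4.28% and 5.55%. The AP-1 motif (TGANTCA, 11.2% of the 3367), the CRE (TGACGTCA, 0.535%) and the NF-kB motif (GGGA, any base, TTTCC, 0.386%) were in 0 of 9. With 9 windows these are descriptions of single sequences. A match is not a binding site, and the absence of these letters says nothing of the factor.

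Remote summits had about the same share without a Tle4cKO counterpart as the whole WT list. Of 730 remote WT summits, 608 (83.3%, exact Clopper-Pearson 95% interval 80.4 to 85.9%) had none within 500 bp, against 82.1% of all WT summits. The share was 85.7% for intergenic summits up to 50 kb from a gene, 85.6% in gene bodies and 77.5% within 1 kb of a gene end. The absence of a partner chose the members, so nothing is read from these values. Seen from the other library, remote summits made up 7.18% of the Tle4cKO list and 6.98% of the WT list. Of the 168 remote Tle4cKO summits, 47 (28.0%) had no WT summit within 500 bp, against 20.3% of all Tle4cKO summits. That share was 28.4% for Tle4cKO intergenic summits nearer to genes, 26.7% in gene bodies and 12.7% at gene ends. The intervals on counts here cover counting error only, and they are too narrow where summits lie in groups.

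The members scored a little lower than the WT list as a whole. The score is the authors' value per peak, a −log10 of a p- or q-value, and is used here only within the WT list. Members ranged from 1.35 to 11.7, with a median of 3.95 and quartiles of 3.18 and 4.97, against a median of 4.47 and quartiles of 3.35 and 6.09 for all WT summits. The median of all WT-only summits was 4.21. Of the 608, 150 (24.7%) scored at least 5, 6 scored at least 10 and 122 scored under 3. The 122 remote WT summits with a Tle4cKO partner had a median of 8.35, an upper quartile of 19.5 and a highest score of 252. Other WT-only summits were closer to the members, with medians of 4.05 for 1502 intergenic ones up to 50 kb from a gene, 3.92 in gene bodies and 4.64 at gene ends.

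The share of remote WT summits without a partner changed with the score. It was 96.8% under a score of 3, 91.7% between 4 and 5, 79.5% between 6 and 8 and 46.2% between 10 and 12. None of the 43 remote WT summits with a score of 12 or more was without a partner, which allows a share of up to 8.22% by the exact interval. The same fall with score was present in the other classes, where the share under 3 and at 12 or more was 94.2% and 8.11% for intergenic summits nearer to genes, 95.2% and 12% in gene bodies and 93.7% and 22.5% at gene ends. Over all WT summits it was 94.7% and 15.8%. Of the 43, 20 lay beyond the outermost protein-coding gene of their chromosome and 11 were on chromosome 9. Those 11 were packed between positions 3000322 and 3038020. A group of 3 beside Lrrc4c, between positions 98662692 and 98666817 of chromosome 2, included the highest score, 252. The high scores thus came in part from a few short stretches, and what these grouped summits represent was not tested. Of the members, 3 of 608 (0.493%) lay beyond the outermost gene, against 24 of the 122 remote summits with a partner (19.7%).

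**Figure D1:**
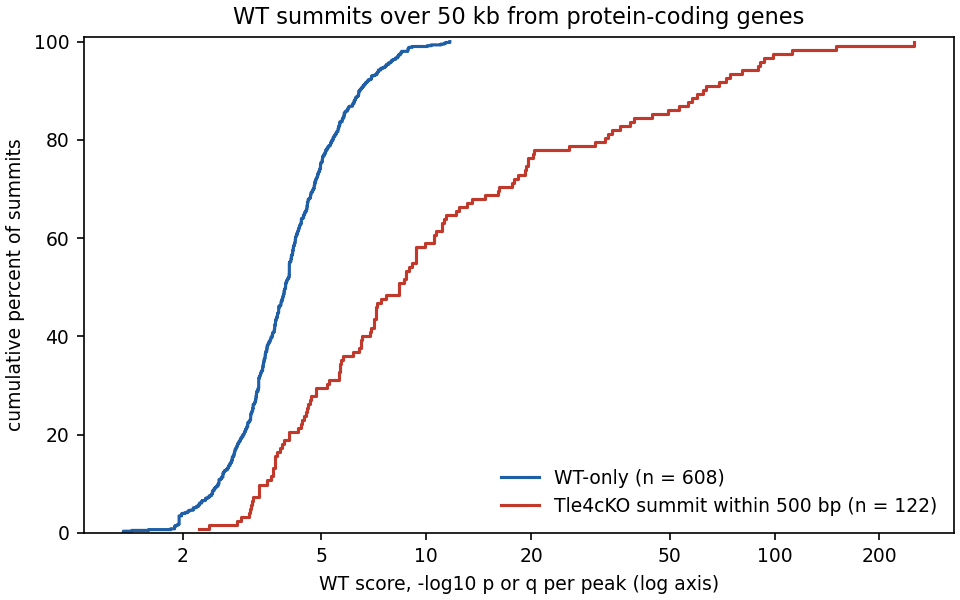
Cumulative percent of remote WT summits against the authors' score (−log10 of p or q, log axis), for the 608 WT-only summits in blue and the 122 with a Tle4cKO summit within 500 bp in red. The blue curve ends at 11.7, while the upper quartile of the red one is 19.5.

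The 6 members that scored at least 10 were spread over 6 chromosomes. The highest, 11.7, was at position 118008268 of chromosome 2, inside the lncRNA gene Gm13986 and 104 kb from Thbs1, which encodes the secreted matrix protein thrombospondin 1. The nearest Tle4cKO summit was 45.6 kb away. The next was at position 5860528 of chromosome 3, with a score of 11.4, 282 kb from Pex2, a peroxisome biogenesis gene. A summit scoring 11.3 at position 77280657 of chromosome 1 lay 86.5 kb from Epha4, an ephrin receptor gene, with no Tle4cKO summit within 1208 kb. These 3 high-scoring members thus differed widely in how near the next called Tle4cKO region was.

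The other 3 lay near genes of chromatin, signalling and the cytoskeleton. A summit scoring 11.0 at position 37620163 of chromosome 13 lay between Ly86, which encodes a partner of an innate receptor, and Rreb1, a zinc-finger factor gene, with a Tle4cKO summit at 22.7 kb. A summit scoring 10.3 at position 36917957 of chromosome 10 lay 56.3 kb from Hdac2, a histone deacetylase gene with a summit at its end in both libraries. A summit scoring 10.1 at position 167133166 of the X chromosome lay 73.9 kb from Tmsb4x, which encodes the actin monomer-binding thymosin beta 4. Its nearest Tle4cKO summit was 1903 kb away.

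Ranks 7 to 15 had scores between 8.46 and 9.12. Their nearest genes included Marcks, which encodes an actin-binding kinase substrate (182 kb, score 9.12), and Ripk2, the kinase of NOD receptor signalling (50.8 kb, score 8.51). B3galnt1, Cspg4b, Fam43a, Atp13a3, Eif4g2 and 1700056E22Rik were the nearest genes of a further 6. The summit near Cspg4b (score 8.89) was 118 bp from the annotated start of the lncRNA gene Gm41071. The rank 15 summit, at position 3037272 of chromosome 9, was the member closest to a Tle4cKO summit, at 721 bp. It lay in the stretch of chromosome 9 that held 11 of the remote WT summits scoring 12 or more. A summit at rank 23, with a score of 8.04, lay 50.2 kb from Tle3, a paralogue of Tle4.

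The criteria drew lines through continuous distances. The members nearest the distance limit were 50.005, 50.052, 50.063, 50.173 and 50.224 kb from Pip4k2a, D16Ertd472e, Dkk2, Tle3 and Lrrc74a, with scores of 5.65, 4.12, 2.85, 8.04 and 3.89. Just outside it, WT-only summits lay 49.765, 49.687, 49.328, 49.234 and 49.226 kb from Hk2, Rbbp6, Man1a2, Cstad and Myl12b, with scores of 6.67, 2.79, 2.97, 4.00 and 5.49. The 5 members with the nearest Tle4cKO summit had it at 721, 771, 906, 926 and 991 bp, with scores of 8.46, 3.30, 3.85, 4.27 and 3.45. Remote WT summits excluded by the nearest margin had a partner at 488, 461, 427, 424 and 423 bp, with scores of 7.20, 3.68, 7.17, 2.85 and 3.91. Scores on the inner and outer sides of each limit covered overlapping ranges.

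Most members stood well away from any Tle4cKO summit. The nearest was at a median of 260 kb, with a range of 0.721 to 10311 kb, against 160 kb for WT-only intergenic summits up to 50 kb from a gene. A Tle4cKO summit lay within 2 kb of 8 members, within 10 kb of 22 (3.62%, 95% interval 2.28 to 5.43%) and within 100 kb of 166 (27.3%). For the WT-only intergenic summits nearer to genes the shares within 10 and 100 kb were 6.59% and 39.6%. The rule set both the distance from genes and the least distance from a Tle4cKO summit, and most Tle4cKO summits lie near genes, so these distances are a description and nothing is read from the difference.

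Members became sparser with distance from genes. The nearest gene was at a median of 104 kb. Territory over 50 kb from both of the genes that bound it came to 941 Mb in 2768 intergenic gaps wider than 100 kb, and 605 members lay in it, or 0.643 per Mb (exact Poisson 95% interval 0.593 to 0.696). Density was 1.43 per Mb at 50 to 100 kb from the nearest gene, 0.899 at 100 to 200 kb, 0.499 at 200 to 300 kb and 0.201 at 300 to 500 kb. It was 0.0896 per Mb at 500 to 1000 kb and 0.0541 beyond that.

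**Figure D2:**
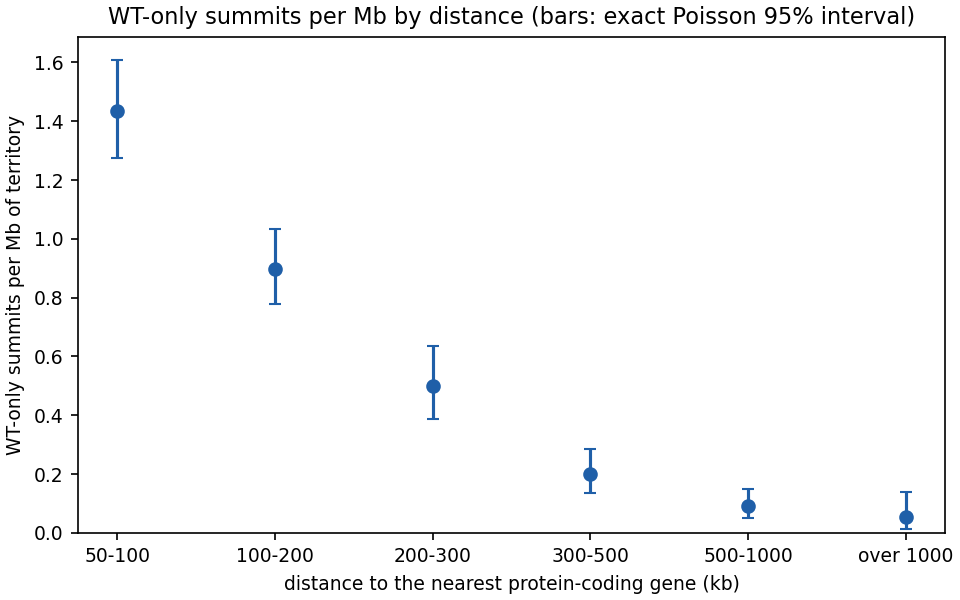
WT-only remote summits per Mb of territory (points, with exact Poisson 95% intervals) by distance in kb to the nearest protein-coding gene. The density was 1.43 per Mb in the nearest bin and 0.0541 in the farthest, which holds 4 members.

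Remote Tle4cKO summits also became sparser up to 300 to 500 kb, and the intervals of the 3 farthest bins overlapped. Their density in the same territory and the same 6 bins was 0.320, 0.194, 0.106, 0.0520, 0.0448 and 0.0811 per Mb. The last value (95% interval 0.0298 to 0.177) rests on 6 summits, and its interval overlaps that of the 4 members in the same bin (0.0147 to 0.138). The 3 members farthest from a gene were all in the desert beside Zeb2, which encodes a repressor that macrophages use to keep tissue identity. They lay 1326, 1253 and 1198 kb from it, with scores of 4.21, 3.19 and 3.30. The next were 1014 kb from Cdc73 (3.30) and 928 kb from Zfp386 (2.61). The Zfp386 summit lay within the immunoglobulin heavy chain locus, which held 1 Tle4cKO and 5 WT summits, 4 of them members.

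Members lay in a minority of the wide gaps. At least 1 member was found in 336 of the 2768 gaps (12.1%), and 213 of these held a single one. The 10 gaps with most members held 72 of the 608 (11.8%) in 0.839% of the territory, and the 50 with most held 229 (37.7%) in 3.596%. These gaps were ranked by the same counts, so an excess over their share of territory follows from the ranking. No comparison with random placement was made. Members were not often packed closely, however. Joined where at most 12500 bp apart, they made 462 single summits, 59 pairs, 8 groups of 3 and 1 group of 4. The group of 4 spanned positions 49966344 to 49987135 of chromosome 16, 53.8 kb from Cd47, which encodes a surface signal that restrains phagocytosis, with scores of 3.25, 4.97, 4.38 and 3.77. Another WT summit of any kind lay within 12500 bp of 166 members (27.3%), against 32.2% of WT-only intergenic summits nearer to genes.

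The gap with most members was the desert between Dhx35 and Gm826 on chromosome 2, with 10 members and no Tle4cKO summit. All 10 lay between positions 160010636 and 160250161, at the end toward Gm826. Their scores were 5.41, 4.56, 4.03, 3.95, 3.37, 3.12, 2.95, 2.81, 2.46 and 2.46, so none was high. The Gm34805 promoter window printed above holds the one scoring 3.37.

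The gap between Egfl6 and Tmsb4x on the X chromosome held 8 members and no Tle4cKO summit. Their scores were 10.1, 6.50, 5.15, 5.08, 3.74, 3.58, 3.37 and 3.08, and they lay 60.4 to 254 kb from Tmsb4x. The closest Tle4cKO summit to any of them was at 1890 kb. These 8 were 8 of only 20 members on the X chromosome.

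There were 6 further gaps with 7 members each. Between Ly86 and Rreb1 the scores were 11.0, 5.14, 4.78, 3.91, 3.35, 3.00 and 2.24, with 1 Tle4cKO summit in the territory. Between Ptger4, the gene of a prostaglandin E2 receptor, and Dab2, an endocytic adaptor gene, they were 8.34, 6.52, 3.97, 3.77, 3.26, 2.07 and 1.98, with 2 Tle4cKO summits. Between Cd83, a surface protein gene of activated antigen-presenting cells, and Jarid2, a Polycomb cofactor gene, they were 8.28, 6.20, 5.62, 4.30, 3.78, 3.61 and 2.38, with none. Each of these 3 gaps mixed a high score with several under 4.

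Between Marcks and Rfpl4b the scores were 9.12, 6.32, 3.91, 3.53, 3.34, 3.29 and 2.14, with 1 Tle4cKO summit, the partner of a further WT summit. Beside Runx1, the gene of a haematopoietic factor that can recruit Groucho proteins, the gap to Setd4 had members scoring 5.58, 5.31, 4.72, 4.25, 3.49, 3.13 and 2.82 and no Tle4cKO summit. The 7 between Akr1e1 and Klf6, a zinc-finger factor gene, scored at most 4.97, with 2 Tle4cKO summits in the territory. One of those was 1.18 kb from a member and the partner of another WT summit. Of the 8 gaps with 7 or more members, 4 held a remote Tle4cKO summit, against 63 of the 336 gaps with any member and 119 of all 2768 gaps.

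**Figure D3:**
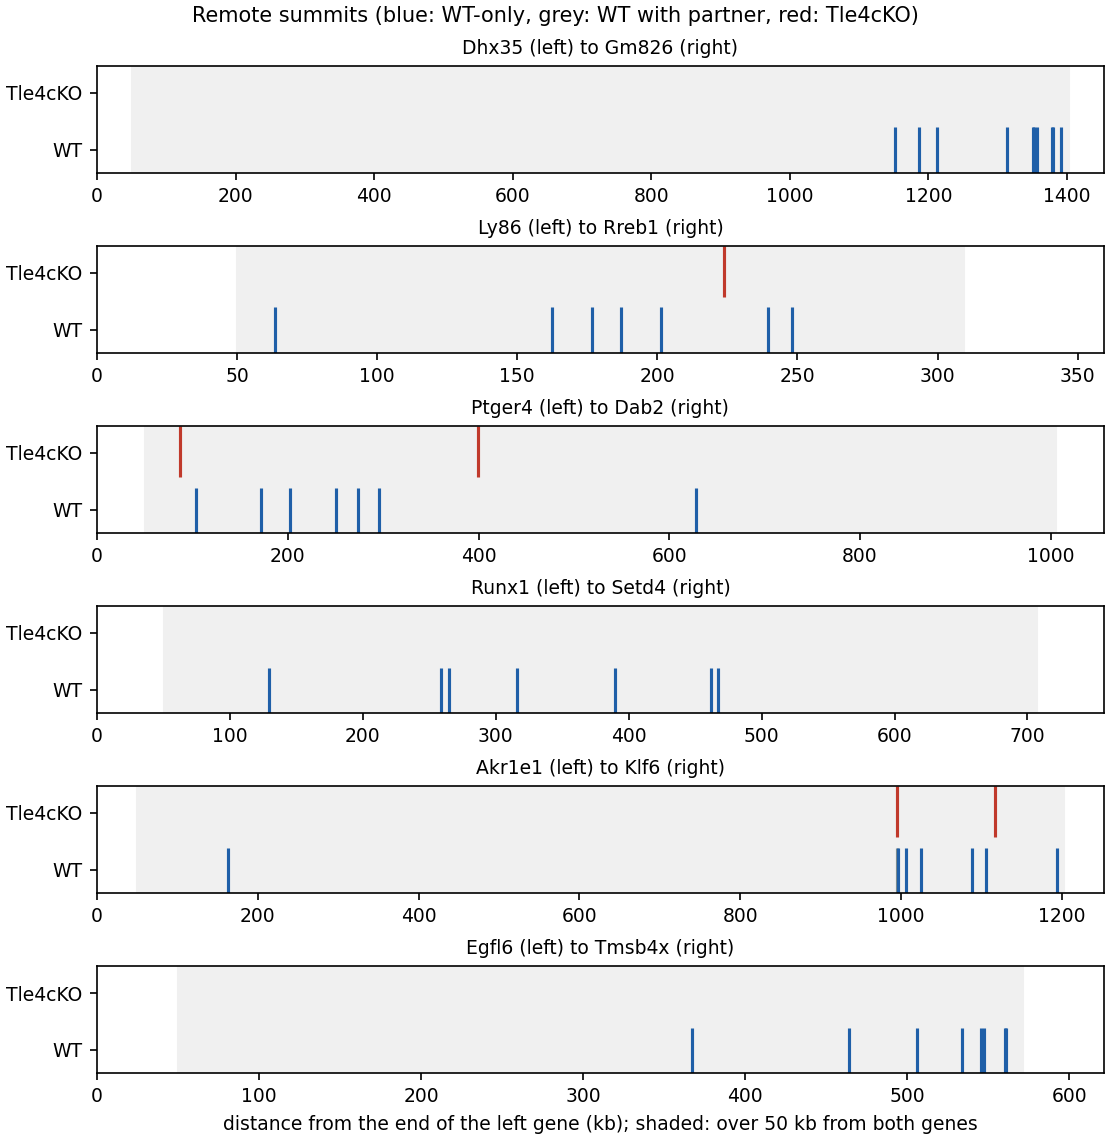
Positions of remote Tle4cKO summits (red, upper row of each panel) and remote WT summits (lower row; blue without and grey with a Tle4cKO partner within 500 bp) in 6 of the 8 gaps with most members, in kb from the end of the left gene. Grey shading is the territory over 50 kb from both genes; no red mark appears in the panels of Gm826, Runx1 and Tmsb4x.

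Deserts beside genes of macrophage lineage transcription factors held more members per Mb than territory as a whole. Of 44 such genes, 28 bounded a wide gap, and 19 of the 28 (67.9%) had at least 1 member there, against 649 of 4506 coding genes that bound a wide gap (14.4%). Their gaps held 64 members in 21.8 Mb, or 2.94 per Mb (95% interval 2.26 to 3.75), against 0.643 over all gaps. A gene of the list was the nearest coding gene for 49 of the 64, and the others were nearer to the gene across the gap. The same gaps held 7 Tle4cKO summits and 67 WT summits, and 95.5% of the WT ones had no partner, against 143 Tle4cKO summits, 703 WT summits and 86.1% over all gaps. The absence of a partner chose the members, so nothing is read from this share. The 64 were of modest score, with a median of 3.65 against 3.95 for all members, and 1 of them was among the 100 highest.

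The difference in density was present in each of 3 width classes and was smaller among higher scores. In gaps with up to 0.3 Mb of territory the density was 10.5 per Mb beside these genes and 1.52 elsewhere, at 0.3 to 1 Mb it was 2.22 and 0.624, and above 1 Mb it was 2.03 and 0.181. The ratio to other gaps was 4.99 (exact binomial 95% interval 3.79 to 6.47) with all scores. With both lists limited to scores of at least 5 it was 1.82 (0.721 to 3.84), and no member was left beside these genes at scores of at least 10.

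Klf6 had most members, 8 in its gaps on both sides with 2 Tle4cKO summits. Runx1 had 7, Id2 had 6, and Rbpj, the DNA-binding effector of Notch signalling, had 6, with no Tle4cKO summit in the territory of these 3. Of the Runx1 members 3 were nearer to Setd4, and of the Rbpj members 2 were nearer to Smim20. The Rbpj members scored 5.01, 4.90, 4.16, 3.74, 3.47 and 2.95 and lay 52.0 to 218 kb from the gene. The Id2 members scored 6.14, 4.97, 3.94, 3.25, 2.87 and 1.897 and lay 144 to 397 kb from it, and the lowest is the one in the Gm46343 window. Id2 is the only one of these 3 genes with a WT summit at an end, scoring 3.81.

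Myc, a growth regulator gene, and Zeb2 had 5 members each and 1 Tle4cKO summit each. Of the Myc members, 3 lay 1606 to 1657 kb from it and 128 to 180.0 kb from Gsdmc, at the far end of the same gap. Bcl6, a repressor gene, and Maf, a bZIP factor gene of resident macrophages, had 4 each. Cebpb, Klf4 and Runx3 had 3 each, Mef2a and Runx2 had 2, and Bach2, Bhlhe40, Mef2c, Nfe2l2, Tcf4 and Tfec had 1. The other 9 bounding genes had none, among them Bach1, Ets1, Ets2, Gata6, Irf8, Mitf, Nr4a2 and Nr4a3.

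Genes of the immediate early response and AP-1, which are induced within minutes of a stimulus, gave a smaller set with higher scores. Of 26, 8 bounded a wide gap and 4 of these had a member. There were 10 members in 1.402 Mb, or 7.13 per Mb (3.42 to 13.1), and no Tle4cKO summit in that territory. Remote Tle4cKO summits numbered 0.152 per Mb over all gaps. Their absence from a small territory, here or beside a single gene, therefore says little. Their median score was 5.61, and 5 of the 10 were among the 100 highest.

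Jun, which encodes a core AP-1 subunit, had members scoring 8.42, 5.86 and 5.40 at 251, 109 and 54.1 kb, of which the nearer pair lay in the antisense lncRNA gene Junos. Nfkbiz, an inducible nuclear IkB protein gene, had members scoring 6.74, 5.82 and 4.42 at 148 to 174 kb. Tnfaip3, which encodes the A20 inhibitor of NF-kB signalling, had a group of 3 scoring 4.16, 3.50 and 2.84 at 78.5 to 89.8 kb. Fos, the partner of Jun in AP-1, had 1 scoring 6.36 at 56.4 kb, in the gap to Jdp2. Of these 4 genes, Nfkbiz had a gene-end summit in both libraries (6.06 in Tle4cKO and 5.33 in WT), Jun in WT alone (3.46), and the other two in neither. Atf3, Egr2, Ier3 and Ier5 had no member in their gaps.

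Deserts beside neuronal genes held few members. Genes of synaptic and neuronal adhesion proteins bounded 184 Mb of territory with 14 members, or 0.0761 per Mb (0.0416 to 0.128). The same territory held 12 Tle4cKO and 22 WT summits, so that 63.6% of its WT summits were WT-only, against 86.1% over all gaps. Of its 8 WT summits with a partner, 3 formed a single group beside Lrrc4c, as did 3 of the 12 Tle4cKO summits. The WT-only share was 90% beside ion channel genes and 90.3% beside developmental factor genes, from 10 and 31 WT summits. The absence of a partner chose the members, so nothing is read from these shares. Several of the 14 members beside synaptic and neuronal adhesion genes were nearer to the other bounding gene. Of the 3 beside Cdh18, all were 60.3 to 81.0 kb from Basp1 and 1805 to 1825 kb from Cdh18. The pair in the gap between Cxcr4, a chemokine receptor gene, and Thsd7b lay 113 and 130 kb from Cxcr4, with scores of 5.74 and 3.16 and a Tle4cKO summit at 7.41 and 9.10 kb. The highest-scoring of the 14 was the summit near Epha4.

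Ion channel and glutamate receptor genes had 9 members in 49.1 Mb, or 0.183 per Mb (0.0838 to 0.348). Olfactory and vomeronasal receptor genes had none in 8.97 Mb, where there were 2 Tle4cKO summits, both with a WT partner. Genes of developmental transcription factors were in between, with 28 members in 65.4 Mb, or 0.428 per Mb (0.284 to 0.619). In gaps with up to 0.3 Mb, 0.3 to 1 Mb and over 1 Mb of territory their densities were 0.933, 0.515 and 0.126 per Mb. Other gaps had 1.66, 0.673 and 0.242, and the intervals overlapped in each width class. Of the 28 members, Olig3 accounted for 5, in gaps shared with Tnfaip3 and with Ifngr1, the gene of an interferon gamma receptor chain. Prdm1, which encodes a repressor of terminally differentiating cells that can recruit Groucho proteins, had 4, scoring 7.68, 3.92, 3.43 and 2.54 at 131 to 174 kb, with no Tle4cKO summit in the territory. Sox4 also had 4.

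Genes that define macrophages had no member in their surroundings, but they seldom lay beside a desert. Of 31 macrophage identity genes, 5 bounded a wide gap, with 0 members in 3.34 Mb, which allows up to 1.10 per Mb. Of 38 cytokine and chemokine genes, 9 did, with 1 member, scoring 3.18, 264 kb from Ifng. Epithelial, T cell, B cell, glial and neutrophil genes had none in territories of 0.209 to 1.42 Mb. A fibroblast gene, Dcn, had 1 scoring 4.53, and an endothelial gene, Kdr, had 1 scoring 3.45.

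**Figure D4:**
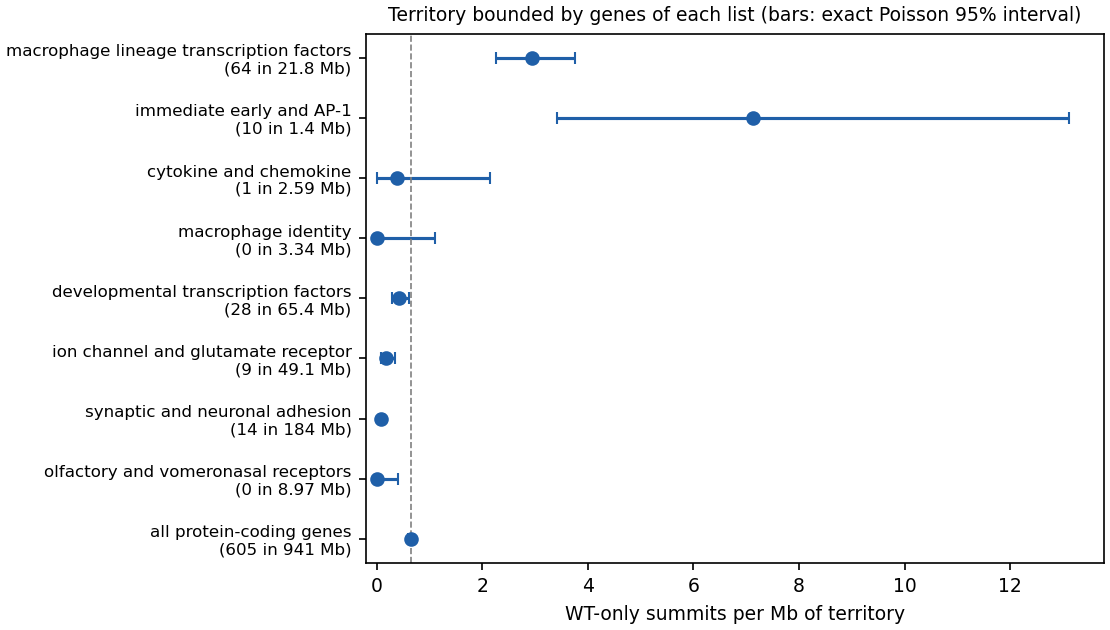
WT-only remote summits per Mb of territory bounded by genes of each list (points, with exact Poisson 95% intervals); the dashed line is the density over all gaps, 0.643 per Mb. The intervals for lineage factors (2.94) and immediate early genes (7.13) lie above the line, and those for developmental factors, ion channel, synaptic and receptor genes below it. Gap width was not held constant between the lists.

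Whether a bounding gene was itself marked was a related property. Gaps with a WT summit within 1 kb of an end of either bounding gene held 271 members in 284 Mb, or 0.956 per Mb (0.845 to 1.08), and gaps with neither gene marked held 334 in 657 Mb, or 0.508 (0.455 to 0.566). With both genes marked the density was 2.39 per Mb (1.72 to 3.25), from 41 members in 17.1 Mb. The difference was clear in narrow gaps, at 3.37 against 1.58 per Mb with up to 0.1 Mb of territory. Above 1 Mb the values were 0.267 (0.188 to 0.368) and 0.222 (0.173 to 0.281), whose intervals overlap. With both lists limited to scores of at least 5 the ratio of 1.88 (1.60 to 2.21) became 0.995 (0.647 to 1.485). Gene-end marks were then also limited to such scores. The set of marked bounding genes therefore changed too, and the change in ratio cannot be put down to the members' scores alone. Remote WT summits with a partner were also denser in gaps with either gene marked, at 0.152 per Mb against 0.0837 with neither marked. For remote Tle4cKO summits the values were 0.212 and 0.126 per Mb, so the pattern was not particular to the members.

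The 608 members had 378 different nearest genes, of which 257 were nearest to a single member. Of the 378, 26 (6.88%) had a Tle4cKO summit within 1 kb of an end, against 6.26% of all 21631 protein-coding genes. A WT summit was at an end of 106 (28.0%, 95% interval 23.6 to 32.9%), against 22.9% of all genes. The Tle4cKO share was near that of all genes, which lay within its interval, and the WT share was a little higher. The gene nearest to most members, after Gm826 and Tmsb4x, was Marcks with 7.

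Members were placed unevenly across chromosomes. Chromosome 10 had 69 members, 1.55 per Mb of territory (1.20 to 1.96), and chromosome 13 had 64, 1.43 per Mb (1.10 to 1.82). Chromosomes 16 and 2 followed with 1.03 and 1.01 per Mb. The lowest densities were on the X chromosome, with 20 members at 0.257 per Mb (0.157 to 0.396), and on chromosomes 19, 14 and 11, at 0.364, 0.371 and 0.373. On chromosomes 10 and 13 members made up 12.34% and 12.45% of all WT summits, against 608 of 10460 over all chromosomes. On the X chromosome, the lowest in density, this share was also high, at 10.7%, since it had only 187 WT summits of any kind. Remote Tle4cKO summits numbered 19 and 13 there, which were also their highest counts, with 13 on chromosome 9 as well. The WT-only share of remote WT summits was 84.1% and 85.3% on these chromosomes, against 83.3% of all remote WT summits. The gaps with most members there were Marcks to Rfpl4b and Ado to Zfp365 on chromosome 10, and Ly86 to Rreb1, Cd83 to Jarid2 and Akr1e1 to Klf6 on chromosome 13.

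**Figure D5:**
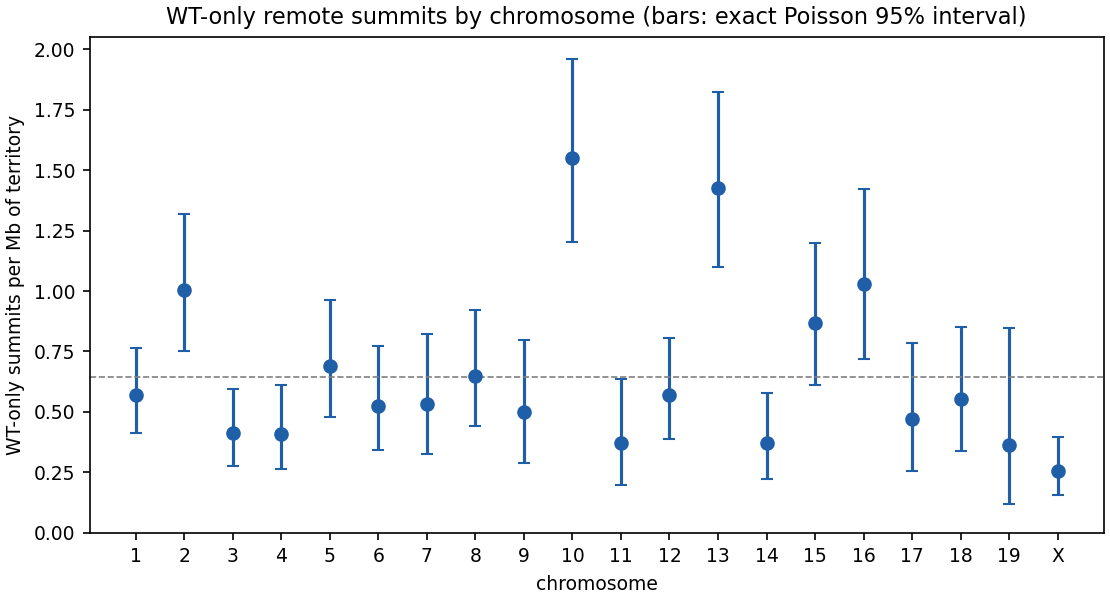
WT-only remote summits per Mb of territory on each chromosome (points, with exact Poisson 95% intervals); the dashed line is the density over all chromosomes, 0.643 per Mb. Chromosomes 10 and 13 stand at 1.55 and 1.43, with intervals that overlap each other, and X is lowest at 0.257.

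Far from coding genes does not mean far from all annotation. Of the 608 members, 194 (31.9%) lay inside another annotated gene, 171 of them in a lncRNA gene, and 266 (43.8%, 95% interval 39.8 to 47.8%) lay inside or within 5 kb of one. WT-only intergenic summits nearer to coding genes had shares of 22.1% inside and 37.9% inside or within 5 kb. Non-coding genes covered 121 Mb of the territory (12.8%) and held 1.61 members per Mb (1.39 to 1.85), against 0.501 (0.454 to 0.552) in the territory outside every annotated gene. So the members were denser in annotated non-coding genes than outside them. Remote WT summits with a partner lay inside such genes in 24.6% of cases (17.2 to 33.2%), an interval that overlaps that of the members (28.2 to 35.8%). They lay inside or within 5 kb in 30.3% (22.3 to 39.3%). Whether the density inside these genes is particular to the members was not tested.

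Few members sat at the starts of these genes. Within 1 kb of an annotated non-coding start there were 27 members (4.44%), and of 3367 such starts over 50 kb from coding genes 33 (0.980%) had a member within 1 kb. Gm31718 held 4 members, and Gm13986, Gm26535, Lncpint and Gm34805 held 3 each, with highest scores of 4.96, 11.7, 9.12, 6.995 and 5.41. Lncpint is a lncRNA known as a p53 target, and its 3 members, scoring 6.995, 3.06 and 1.903, had no Tle4cKO summit within 714 kb. Within 10 kb of an annotated miRNA gene there were 2 members (0.329%). The share was 1.26% for WT-only intergenic summits nearer to coding genes and 2.40% for all WT-only summits.

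The same properties were set out by score. Members scoring at least 5 (n = 150), 3 to 5 (n = 336) and under 3 (n = 122) lay at median distances of 93.6, 104 and 111 kb from the nearest gene. They lay inside non-coding genes in 28.7%, 32.1% and 35.2% of cases and within 12500 bp of another WT summit in 26.7%, 28.0% and 26.2%. The nearest gene had a WT gene-end summit in 31.3%, 30.7% and 24.6%. The 95% intervals of these shares overlapped between all 3 score classes.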

How the data were processed

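CUT&Tag for H3K27ac gave 1 library for Tle4cKO and 1 for WT, each from the pooled macrophages of 4 mice. Per the submitters' processing notes, cutadapt 1.14 and Bowtie2 2.2.5 were used on mm10. How peaks were called, against what control and at what depth is not given in the sources used here. For each library the authors deposited 1 list of 1-bp summits, each with a score read as the −log10 of a p-value or q-value per peak, since the lowest scores, 1.37 in Tle4cKO and 1.35 in WT, are close to 1.30, the −log10 of 0.05. No source says which of them it is. Scores of this kind grow with depth, so scores were compared within a list only.

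Positions were counted from 1. Genes came from RefSeq on GRCm38.p6, with 21631 protein-coding and 27923 other genes on chromosomes 1 to 19 and X. The table gives outer ends of genes and no exons. Territory was the part of each intergenic gap over 50 kb from both bounding genes. The members and all gene lists were chosen with earlier results of these data known. All list symbols were matched.

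Members were named by rule: the 15 with the highest score, the 5 farthest from genes, the 5 nearest to each limit on either side, the runs with most members, up to 4 per gene list by score, and the genes beside most members. Further members in those gaps, the summit near Tle3 and the sequences shown were chosen after their values had been seen. Shares have exact Clopper-Pearson, densities exact Poisson and density ratios exact binomial 95% intervals, which cover counting error only. No test between genotypes was made, since each has a single library. Promoter windows came from RefSeq and were checked for strand in 87 overlapping pairs on opposite strands, of which 87 matched. The planned sequence features around every summit needed a genome and were not run. Alternatives were other score minimums, distances, partner windows, gene sets and joined summits. Computation used Python 3.11.15, pandas 2.3.3, numpy 2.4.6, scipy 1.17.1 and matplotlib 3.10.9. The steps were tested on simulated data, where 1168 of 1180 planted WT-only remote summits (99.0%) were recovered and 0 others were called. The other simulated summits lay inside genes or had a partner planted within 500 bp, so none of them could be called. No summit was simulated between a gene and the 50 kb limit, so that limit was not tested.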

Additional observations from a re-analysis of the deposited data

Results flagged for a closer look

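Summits on the mitochondrial chromosome are outside the chromosomes compared here. There were 2 in Tle4cKO and 4 in WT, and the WT count is above the limit of 3 that a count of 0 allows. Mitochondrial DNA carries no histones, and these summits were used in no value of the report.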

How the results depend on the processing

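With both lists limited to scores of at least 5, at scores of at least 10, and with as many top-scoring WT summits as Tle4cKO has in all (the shortened list), the WT-only remote summits numbered 173, 17 and 67. Their share of remote WT summits was then 73.3%, 30.4% and 46.5%, their median score 6.28, 11.2 and 7.41, the share in or within 5 kb of another annotated gene 37.6%, 35.3% and 38.8%, and the share within 12500 bp of another WT summit 5.2%, 0% and 2.99%. A minimum score on both lists also removes partners. A Tle4cKO summit lay within 10 kb of 0% at scores of at least 10 and of 1.49% with the shortened list. At distances over 25, 100 and 200 kb the counts were 975, 316 and 117. Over 200 kb the WT-only share was 77% and the share in or near another annotated gene 35.9%. The share near another WT summit was 22.8% over 100 kb, 15.4% over 200 kb and 21.5% without runs of 3 or more summits. With distance taken from genes of any type, 86 summits remained, 74.8% of the remote ones were WT-only and 10.5% lay near another WT summit. With partners required within 100 or 250 bp the WT-only share was 89.7% or 86.3%, and 10.5% or 6.98% had a Tle4cKO summit within 10 kb, against 2.17% with partners allowed to 5000 bp. The count, the WT-only share and the median score of the members were little changed by the other alternatives run. The cause of these changes beyond the construction of each alternative was not tested.

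The density ratio beside lineage factor genes was 6.52 over 100 kb and 9.33 over 200 kb from genes, and no member was left there with the shortened WT list. The ratio for synaptic genes, 0.0975, was 0.178 and 0.294 at scores of at least 5 and 10, 0.27 with the shortened list and 0.0455 over 200 kb. The ratio for marked bounding genes was 1.33 over 200 kb. These ratios were added as alternatives after seeing the data.

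No paired analysis was possible because each genotype has 1 library, and for the same reason leaving out a replicate was not an option. Read depth is unknown, so a region not called in Tle4cKO cannot be told from one below its calling threshold.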
